A study of Mus musculus with 6 samples.

Results

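Antigen presentation on MHC class II was followed through 8 genes in nuclei from photothrombotic lesions of the mouse brain: H2-Aa, H2-Ab1, H2-Eb1, H2-DMa, H2-DMb1, H2-Oa, Cd74 and Ciita. They are listed by name, as genes of the mouse class II pathway; the rule uses no measured value, but the set was proposed with earlier results of these data known. They are 8 of the 32285 features in the matrices. Each of the 6 libraries stood for 1 group and pooled the lesions of 1 male and 1 female mouse, all injured by photothrombosis and dissected 7 or 21 days post-injury (dpi). At each time there was a wild-type control (Ctrl) and a group given ADWA11, whose genotype is not stated. ADWA11 is an antibody that blocks the integrin αvβ8 and with it the release of active TGFβ, given from the day of injury and weekly after. A further group was Col1a2(creER), Tgfbr2(flox) (Tgfbr2-cKO), in which a tamoxifen-inducible Cre driven by Col1a2 removes the TGFβ receptor gene Tgfbr2 from fibroblasts. In its Tgfbr2-cKO experiments the study gave tamoxifen repeatedly, before and after injury. Whether the Ctrl and ADWA11 mice of these libraries received it is not stated, so that tamoxifen and genotype cannot be told apart. The mice of the study were 7 to 21 weeks old. Uninjured tissue was not part of these 6 libraries, Tgfbr2 is deleted by the design only in cells that express Col1a2, and αvβ8 is blocked throughout the animal. With 1 library per group there is no replicate of any condition, so no p-value is given, and all intervals below are 95% intervals for counting error only.

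Class II molecules are pairs of an α and a β chain that carry peptides of ingested protein to the cell surface, where CD4+ T cells read them. H2-Aa and H2-Ab1 encode the chains of H2-A, and H2-Eb1 the β chain of H2-E. Cd74 encodes the invariant chain, which holds the new molecule and takes it to the endosome. There H2-DM, from H2-DMa and H2-DMb1, exchanges the remnant of the invariant chain for a peptide, and H2-O, whose α chain is H2-Oa, restrains H2-DM in B cells and some dendritic cells. Ciita encodes the transactivator that switches on the whole set; interferon-γ induces it in macrophages and microglia, while dendritic cells and B cells keep it on by promoters of their own. In the resting brain, class II is largely restricted to the few dendritic cells and macrophages of its borders, and microglia carry little of it.

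The annotation of the GRCm38 (mm10) build placed 6 of the genes in the MHC on chromosome 17, within 224335 bases from 34092340 to 34316674. H2-Oa lay at chr17:34092340-34095234 on the plus strand, H2-DMa at chr17:34119541-34139101 (plus), H2-DMb1 at chr17:34153072-34160230 (plus), H2-Ab1 at chr17:34257689-34269419 (plus), H2-Aa at chr17:34282744-34287823 (minus) and H2-Eb1 at chr17:34305867-34316674 (plus). Ciita lay apart at chr16:10480059-10528418 (plus), and Cd74 outside the MHC as well. The gene model of H2-DMa overlapped that of Brd2 on the other strand and those of CR974462.3, CR974462.4 and Gm20493, so that its counts are less certain than those of the other members. Models that overlapped H2-Eb1 (Gm20513), H2-Oa (BC051537), Cd74 (Mir5107) and Ciita (Dexi) were also annotated.

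Ciita acts through proteins already seated on a shared promoter element, the X and Y boxes. The promoter sequences of the 4 members in which letters of it were found are given here, since they are a feature apart from the measured levels; for the other members it is not shown. In the RefSeq promoters (GRCm38.p6), 4 of the 5 members with an entry, H2-Aa, H2-Eb1, H2-DMb1 and H2-Oa, held the letters CNNGNAAC followed by TGATTGG, both in capitals below; both were written down after these promoters had been viewed, so that the counts of promoters below are a description and no test.
H2-Aa, chr17:34287861-34287913, minus strand: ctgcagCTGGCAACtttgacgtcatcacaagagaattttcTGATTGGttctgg
H2-Eb1, chr17:34305767-34305818, plus strand: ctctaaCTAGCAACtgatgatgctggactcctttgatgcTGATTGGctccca
H2-DMb1, chr17:34153088-34153140, plus strand: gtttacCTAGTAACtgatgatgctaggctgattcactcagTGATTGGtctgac
H2-Oa, chr17:34092294-34092346, plus strand: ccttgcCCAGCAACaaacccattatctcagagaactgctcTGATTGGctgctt
The gap between the letter groups was 25 bases in H2-Eb1 and 26 in the other 3. The first group began 79 to 97 bases before the transcript start of the RefSeq entry. For H2-DMb1 and H2-Oa that start lies downstream of the start of the gene model given above, and the letters of H2-DMb1 lie inside its gene model. Of all 32851 promoters, 52 (0.158%) held the pair in this order and strand within a gap of 40 bases, and 43 (0.131%) held it on the other strand; the letters CNNGNAAC alone stood in 22.2% and TGATTGG alone in 4.01%. Neither of the promoters listed for H2-DMa held TGATTGG, which says only that these letters are not in the window. The related class II genes H2-Eb2 and H2-Ob held the pair and H2-DMb2 did not, and it stood in 0 of the 35 promoters of the transcription, processing, interferon-γ and class I genes described further on. H2-Ab1, Ciita and Cd74 are named only.

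The 6 libraries held 7205 to 14246 barcodes and 64798965 to 140310354 unique molecular identifiers (UMIs), with a median of 4602 to 8223 UMIs per barcode, and 60468 nuclei were used. In all, 553 barcodes occurred in more than 1 library, 21 to 61 for each pair, and the origin of these was not tested. Nuclei were grouped by marker genes without use of the class II genes. The macrophage group carried UMIs of 15 of 15 macrophage markers in every library at 6424 to 8569 CPM summed (UMIs scaled to the group's own total), against 316 to 365 CPM of the 11 dendritic and 44.8 to 127 CPM of the 7 B cell markers; the dendritic group carried 11 of 11 dendritic markers at 2825 to 3392 CPM. The microglial group carried 9 of 9 microglial markers at 1897 to 2699 CPM, beside macrophage markers at 3338 to 3728 CPM, many of which microglia share. Group sizes followed the libraries closely: microglia numbered 46 and 19 nuclei in the ADWA11 libraries against 717 to 1577 elsewhere, and neural nuclei (neurons, astrocytes and the oligodendrocyte lineage) were 71.7% and 36.9% of the Tgfbr2-cKO nuclei at 7 and 21 dpi against 4.21% to 13.2% elsewhere. Outside their nuclei of 10 or more class II UMIs, 51.0%, 50.9% and 52.9% of macrophages at 7 dpi and 34.0%, 20.3% and 49.2% at 21 dpi carried at least 2 microglial markers, so that nuclei of microglial origin in the macrophage group, ADWA11 included, cannot be told apart. Values are not given as levels for a group with under 50 nuclei in a library. Tgfbr2 in fibroblasts stood at 319, 249 and 242 CPM in the Ctrl, ADWA11 and Tgfbr2-cKO libraries of 7 dpi and at 231, 192 and 190 CPM at 21 dpi, lower in Tgfbr2-cKO than in Ctrl by log2 ratios of -0.40 (-0.54 to -0.27) and -0.28 (-0.38 to -0.18), intervals that hold the ratios of ADWA11 to Ctrl, -0.36 and -0.27. Counts over the whole gene do not resolve the floxed exons, so that these values do not check the deletion.

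Over all nuclei, class II RNA was most abundant in the ADWA11 library at 21 dpi and least in the Tgfbr2-cKO library at 7 dpi. The summed level of the 8 genes was 266 CPM (261 to 270) in Ctrl, 234 CPM (231 to 238) with ADWA11 and 31.5 CPM (30.5 to 32.6) in Tgfbr2-cKO at 7 dpi. At 21 dpi it was 259 CPM (255 to 263) in Ctrl, 1126 CPM (1118 to 1134) with ADWA11 and 123 CPM (120 to 126) in Tgfbr2-cKO. At least 1 class II UMI was found in 33.2%, 46.0% and 19.1% of nuclei at 7 dpi and in 44.3%, 86.1% and 28.4% at 21 dpi, in the same order of groups. When each nucleus was thinned to 2000 UMIs, which leaves out shallower nuclei, from 579 of 10692 with ADWA11 at 7 dpi to 2965 of 12613 in Ctrl at 21 dpi, the percentages were 15.3, 20.2 and 5.47 at 7 dpi and 24.1, 64.2 and 11.9 at 21 dpi. Between the highest and the lowest library the sum differed 35.7-fold, H2-Eb1 66.4-fold, Ciita 48.2-fold and H2-DMa 3.08-fold. Against Ctrl the log2 ratio for Tgfbr2-cKO was -3.08 at 7 dpi and -1.08 at 21 dpi, but -0.92 and -0.33 when neural nuclei were left out. For ADWA11 it was -0.18 at 7 dpi, between -0.77 and 0.20 under other processing, and 2.12 at 21 dpi. In a library as a whole, fewer nuclei of a type and less RNA per nucleus cannot be told apart, so the same genes are given within each group of nuclei.

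The groups that held the class II UMIs were not the same from library to library. Macrophages held 19.0%, 44.1% and 6.33% of them in the Ctrl, ADWA11 and Tgfbr2-cKO libraries of 7 dpi and 18.9%, 61.3% and 15.2% at 21 dpi. Their share of nuclei was 29.5%, 52.8% and 5.32% at 7 dpi, then 14.2%, 46.3% and 11.3% at 21 dpi. Dendritic nuclei, 0.359% to 3.63% of the nuclei, held 14.5% to 43.0% of the class II UMIs, the most in Ctrl at 7 dpi. Fibroblasts held 29.0% in Ctrl at 21 dpi, where they were 46.9% of the nuclei. In the other libraries they held 2.72% to 9.57% and were 3.87% to 27.2% of the nuclei. In T and NK nuclei lay 19.9%, 9.82% and 15.8% for the earlier time, then 15.2%, 5.63% and 25.8% for the later, where the 25.8% of Tgfbr2-cKO became 11.8% without called doublets. In Tgfbr2-cKO at 7 dpi, neural nuclei held 50.1%, although their level was below that of macrophages, microglia and fibroblasts; of these neural UMIs 51.4% were of H2-DMa, whose counts are less certain, against 32.4% in Tgfbr2-cKO at 21 dpi and 4.68% to 18.0% in the Ctrl and ADWA11 libraries.

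**Figure D1:**
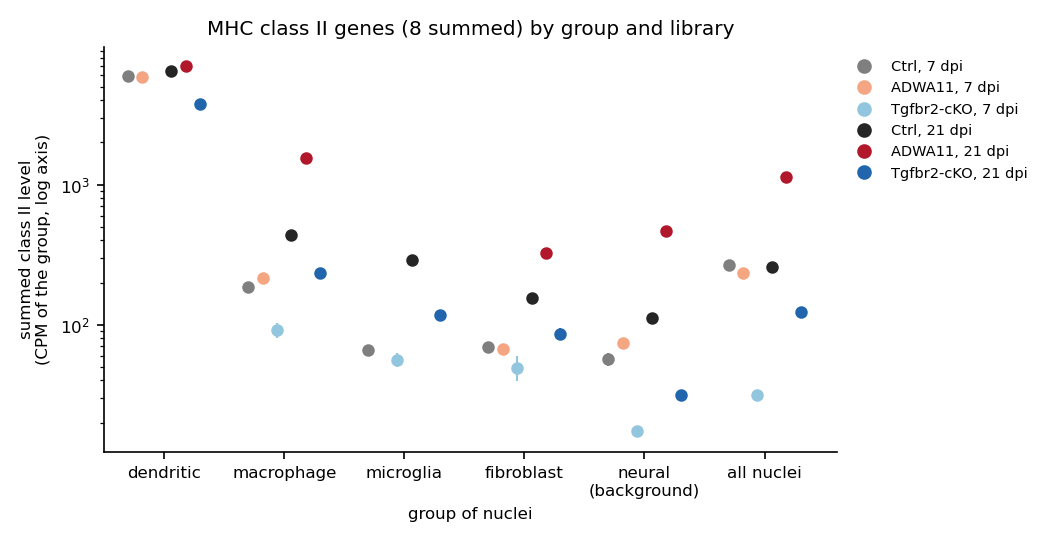
Summed level of the 8 class II genes, in CPM of the group's own UMIs on a log axis, for each group of nuclei (horizontal axis) and library (colour); points are single libraries, bars are 95% counting intervals, and groups with under 50 nuclei in a library are left out. Dendritic nuclei sit at 3771 to 6955 CPM in the 5 libraries with enough of them. Macrophages run from 91.2 to 1534 CPM and neural nuclei, read as a background, from 17.6 to 465 CPM.

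Neural nuclei were read as a background, which holds doublets as well as free RNA. Class II RNA made by these nuclei themselves cannot be told apart from it. Without called doublets they fell from 1366 to 1097 nuclei and from 1029 to 599 class II UMIs with ADWA11 at 7 dpi, and from 506 to 354 nuclei and from 1561 to 836 UMIs at 21 dpi, where 30 of the 506 nuclei held 33.6% of the UMIs. Their summed level was 56.7, 74.1 and 17.6 CPM in the Ctrl, ADWA11 and Tgfbr2-cKO libraries of 7 dpi and 113, 465 and 31.3 CPM at 21 dpi, and after thinning 10.4%, 11.7%, 3.64%, 17.3%, 50.5% and 6.14% of them held a class II UMI. The background thus followed the order of the libraries as wholes at 21 dpi, and the neural level with ADWA11 at 21 dpi was above the macrophage level in Ctrl at 21 dpi. Summed macrophage markers in these neural nuclei were 913, 1025 and 166 CPM at 7 dpi and 617, 818 and 234 CPM at 21 dpi. The neural nuclei were also of different kinds, which the background cannot be told apart from: of them 514 of 870 in Ctrl and 1012 of 1366 with ADWA11 at 7 dpi were oligodendrocyte precursors, 5879 of 7580 in Tgfbr2-cKO at 7 dpi were neurons, and at 21 dpi 1183 of 1661, 434 of 506 and 853 of 2406 were astrocytes. With that limit, each group was also set against the neural nuclei of its own library, as a log2 ratio of CPM. Macrophages were above them in 6 of 6 libraries, by 1.72, 1.53 and 2.37 at 7 dpi and 1.95, 1.72 and 2.90 at 21 dpi. Dendritic nuclei were above them in 5 of 5, by 3.90 to 6.91, and microglia in 4 of 4, by 0.21 (0.01 to 0.42) and 1.36 in Ctrl at 7 and 21 dpi and 1.68 and 1.91 in Tgfbr2-cKO. Fibroblasts were above the neural level in 4 libraries and below it in both ADWA11 libraries.

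B cell nuclei were too few in each library to be ranked. Among the macrophage, microglial, dendritic and fibroblast groups, dendritic nuclei had by far the highest class II level, and it varied little. The 8 genes summed to 5985 CPM in Ctrl and 5851 CPM with ADWA11 at 7 dpi, and to 6467, 6955 and 3771 CPM in Ctrl, ADWA11 and Tgfbr2-cKO at 21 dpi, a range of 1.84-fold; in Tgfbr2-cKO at 7 dpi there were 38 dendritic nuclei with 551 class II UMIs. Cd74, the invariant chain (chr18:60803848-60812652, plus strand), stood at 2399, 2212, 2569, 2533 and 1476 CPM in those 5 libraries. Ciita stood at 764, 617, 609, 807 and 467 CPM and was detected in 53.7% to 77.0% of dendritic nuclei. H2-Aa, the H2-A α chain, stood at 801, 957, 1009, 1187 and 594 CPM, and the Tgfbr2-cKO library at 21 dpi, with 54 nuclei, was the lowest for every member but H2-Oa. That library's sum lay below Ctrl by a log2 ratio of -0.78, which ran from -0.95 to -0.14 under other processing, and the cause was not tested. Against Ctrl, ADWA11 gave -0.03 at 7 dpi and 0.10 at 21 dpi, the latter between -1.22 and 0.23 under other processing, so that no direction held. Macrophage markers in the dendritic group summed to 2304 to 3558 CPM, highest in Tgfbr2-cKO at 21 dpi; their part in the lower class II level was not tested.

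The dendritic group was made up of 3 clusters, given here over all libraries. The cluster led by Cd209a, a lectin of conventional type 2 and monocyte-derived dendritic cells, held 721 nuclei at 6815 CPM. The cluster with Xcr1, the chemokine receptor of cross-presenting type 1 dendritic cells, held 155 nuclei at 5465 CPM and the cluster with Il12b 147 nuclei at 4514 CPM. Ciita was 880 CPM in the Xcr1 cluster and 353 CPM in the Il12b cluster. Within the Cd209a cluster, ADWA11 differed from Ctrl by a log2 ratio of 0.10 at 7 dpi and 0.21 at 21 dpi. H2-Oa, the restraint on H2-DM, was at 25.0, 17.1, 23.2, 4.52 and 6.86 CPM in dendritic nuclei, from 25, 18, 9, 8 and 2 UMIs. With ADWA11 at 21 dpi it lay below Ctrl by -2.36 (-3.93 to -0.81) on the log2 scale, while the sum of the set was no lower in that library.

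Macrophages spanned a far wider range than dendritic nuclei. Their summed class II level was 187 CPM (180 to 194) in Ctrl, 214 CPM (210 to 218) with ADWA11 and 91.2 CPM (80.0 to 103) in Tgfbr2-cKO at 7 dpi, and 434 CPM (419 to 450), 1534 CPM (1521 to 1548) and 233 CPM (219 to 248) at 21 dpi, from 2635, 9167, 240, 3226, 48519 and 988 UMIs. The range was 16.8-fold. In order of level no neighbours had overlapping counting intervals, and ADWA11 at 7 dpi and Tgfbr2-cKO at 21 dpi lay closest together. Macrophage nuclei with a class II UMI were 35.1%, 49.9% and 22.1% at 7 dpi and 51.0%, 92.1% and 37.9% at 21 dpi, at median depths of 5269, 6754 and 4086 UMIs and of 3715, 5148 and 5113 UMIs. In neural nuclei the shares were 28.6%, 37.6% and 19.4% and then 42.6%, 80.4% and 24.2%, at medians of 6399, 9650 and 12624 UMIs and of 5834, 6015 and 8373 UMIs. Thinned to 2000 UMIs, the macrophage shares were 16.3%, 23.4% and 11.8% at 7 dpi and 36.3%, 76.8% and 20.6% at 21 dpi, each above the neural share of its library; 69 to 363 macrophages and 25 to 319 neural nuclei per library were too shallow for this and were left out.

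The invariant chain and the peptide-binding chains ran in a similar order across the macrophage libraries. Cd74 stood at 72.8, 73.4 and 31.9 CPM in the Ctrl, ADWA11 and Tgfbr2-cKO libraries of 7 dpi and at 168, 544 and 82.8 CPM at 21 dpi. H2-Aa stood at 26.4, 28.7 and 11.8 CPM and then 72.4, 263 and 33.0 CPM. H2-Ab1, the H2-A β chain, stood at 31.7, 28.3 and 10.3 CPM and then 61.7, 213 and 31.8 CPM. For each of the 3, ADWA11 at 21 dpi was the highest, Ctrl at 21 dpi the second and Tgfbr2-cKO at 7 dpi the lowest. H2-Eb1, the H2-E β chain, had the same extremes at 16, 22.4 and 5.70 CPM and then 43.5, 215 and 19.3 CPM.

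The peptide-editing chains did not share that spread. H2-DMa stood at 15.5, 23.4 and 18.2 CPM at 7 dpi and at 26.3, 36.2 and 28.5 CPM at 21 dpi, a 2.34-fold range. In neural nuclei H2-DMa read 10.2, 9.65 and 9.03 CPM and then 12.9, 21.8 and 10.1 CPM, the least uneven background of the 8 genes. H2-DMb1 stood at 12.8, 12.9 and 11.0 CPM and then 18.0, 53.1 and 19.1 CPM, a 4.82-fold range set by the ADWA11 library at 21 dpi. H2-Oa gave 5, 11, 1, 2, 5 and 3 macrophage UMIs in the 6 libraries, in 0 of 6 of them above the neural level, so that expression in macrophages was not detectable at this depth.

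Ciita had the widest range of the members, 111-fold between macrophage libraries. It stood at 11.1, 24.6 and 1.90 CPM in the Ctrl, ADWA11 and Tgfbr2-cKO libraries of 7 dpi and at 44.2, 210 and 17.7 CPM at 21 dpi, from 157, 1052, 5, 328, 6640 and 75 UMIs. A Ciita UMI was found in 2.87%, 7.84% and 0.53% of macrophages at 7 dpi and in 9.97%, 41.5% and 5.68% at 21 dpi. In neural nuclei it read 3.13, 5.62 and 1.89 CPM and then 6.36, 17 and 2.44 CPM. Macrophage Ciita was above the neural level in 5 of 6 libraries, and in Tgfbr2-cKO at 7 dpi it could not be told from it, with a log2 ratio of 0.01 (-1.63 to 1.25).

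**Figure D2:**
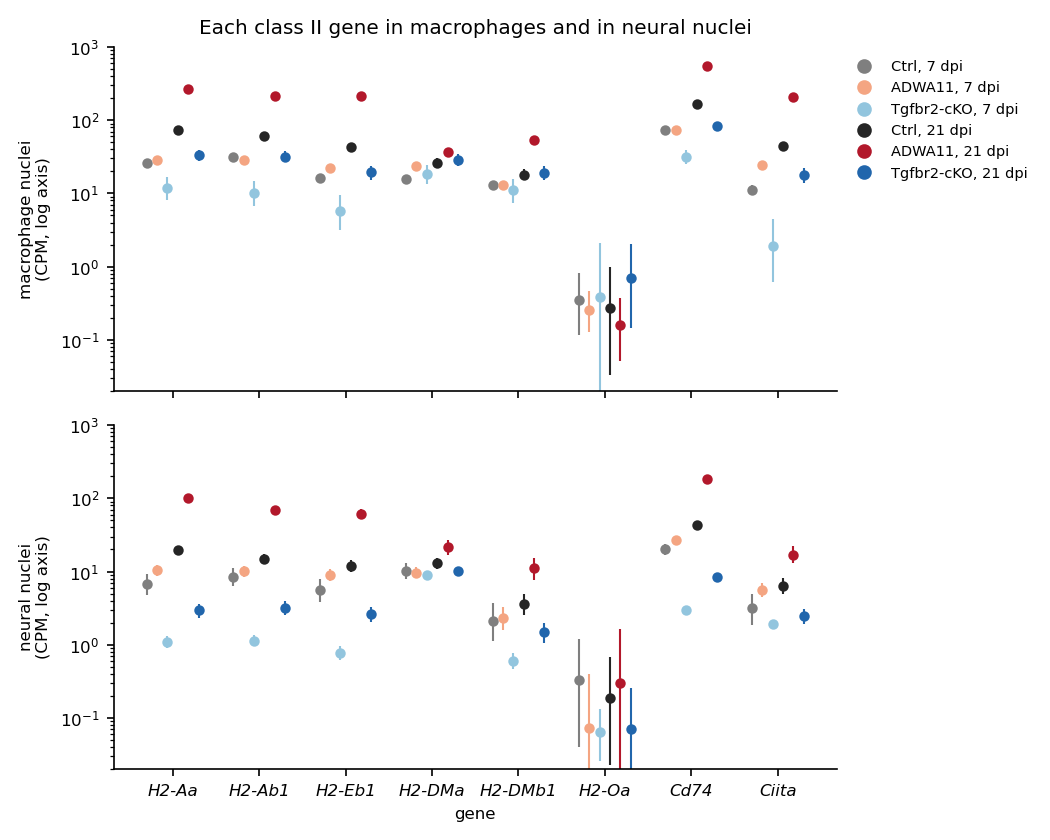
CPM of each of the 8 genes on a log axis in macrophages (upper panel) and in neural nuclei (lower panel), with 1 point per library and 95% counting intervals. H2-Aa, H2-Ab1, H2-Eb1, Cd74 and Ciita spread widely with ADWA11 at 21 dpi on top, H2-DMa stays between 15.5 and 36.2 CPM in macrophages, and the neural levels keep the ADWA11 library at 21 dpi highest for all but H2-Oa.

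Macrophages held less class II RNA in Tgfbr2-cKO than in Ctrl at both times. Against Ctrl the log2 ratio of the sum was -1.03 (-1.23 to -0.84) at 7 dpi and -0.90 (-1.0 to -0.80) at 21 dpi. At 7 dpi, Ciita gave -2.55 (-4.19 to -1.30), H2-Ab1 -1.63 (-2.25 to -1.07), H2-Eb1 -1.49 (-2.35 to -0.74), Cd74 -1.19 (-1.53 to -0.87) and H2-Aa -1.16 (-1.74 to -0.63). The intervals of H2-DMa, 0.23 (-0.25 to 0.69), and H2-DMb1, -0.22 (-0.84 to 0.35), held 0. At 21 dpi the same genes were lower, with Ciita at -1.32 (-1.70 to -0.95), H2-Eb1 at -1.17, H2-Aa at -1.13, Cd74 at -1.02 and H2-Ab1 at -0.95, while H2-DMa gave 0.12 (-0.22 to 0.45) and H2-DMb1 0.08 (-0.33 to 0.49). Over 2-fold lower were 5 of the 7 members with at least 50 UMIs over both libraries (all but H2-Oa) at 7 dpi, where 2.89% of 11747 genes were, and 4 of 7 at 21 dpi, where 4.24% of 11304 genes were; 0 of 7 were over 2-fold higher, where 6.4% and 3.17% of genes were. The medians of the members were -1.19 and -1.02, beside 0.03 over all genes at both times. The size at 7 dpi rested on how nuclei were chosen: it was -0.24 with 1 filter for all libraries, -0.16 with log-normalised clustering and -0.58 without nuclei of 10 or more class II UMIs, and at 21 dpi it ran from -1.60 (female nuclei) to -0.46 (log-normalised clustering). The neural level was lower too, by -1.69 and -1.85, and subtracting it left -0.82 and -0.67, though the neural nuclei were mostly neurons in Tgfbr2-cKO at 7 dpi and mostly oligodendrocyte precursors in Ctrl.

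Macrophage class II RNA was far higher with ADWA11 than in Ctrl at 21 dpi and differed less at 7 dpi. The macrophage groups compared were not alike in what was split off from them. At 7 and 21 dpi the microglial group held 1258 and 717 nuclei in Ctrl and 46 and 19 with ADWA11. The part of this in the ratios below was not tested. Against Ctrl the log2 ratio of the sum was 1.82 (1.77 to 1.87) at 21 dpi, and 1.20 to 2.10 under other processing. The lowest of these left out nuclei of 10 or more class II UMIs, a cut on the measured level itself. Ciita gave 2.25 (2.09 to 2.41), H2-Eb1 2.31, H2-Aa 1.86, H2-Ab1 1.79, Cd74 1.69 and H2-DMb1 1.56, whereas H2-DMa gave 0.47 (0.24 to 0.69); 6 of 7 members were over 2-fold higher, against 3.62% of 13637 genes, and 0 were over 2-fold lower, against 7.93%. Summed dendritic markers in these macrophages were 333 CPM with ADWA11 and 316 CPM in Ctrl, from 11 and 10 of the 11 markers. Of the 1763 macrophages with 10 or more class II UMIs with ADWA11, 584 carried at least 2 dendritic markers, against 15.8% of the rest. In Ctrl it was 17 of 65, against 8.38% of the rest. The part of dendritic cells in these levels was not tested. The background differed as well, with neural nuclei higher by 2.05, and with the neural level subtracted the macrophage ratio was 1.73. At 7 dpi the sum differed by 0.20 (0.13 to 0.26), and by -0.17 (with the leukocytes clustered at a lower resolution) to 0.65 (male nuclei) under other processing. Ciita was at 1.14 (0.90 to 1.39) at 7 dpi; 1 member of 7 was over 2-fold higher, where 6.49% of 14293 genes were, and 0 lower, where 3.4% were, so that nothing is read from the count. The others included 0.01 for Cd74, 0.12 for H2-Aa and -0.16 for H2-Ab1. H2-Ab1 turned to 0.43 when each nucleus was thinned to 2000 UMIs. The thinned ratios of the others were 0.46 for Cd74, 0.27 for H2-Aa, 0.67 for H2-Eb1, 0.91 for H2-DMa, 0.20 for H2-DMb1 and 1.46 for Ciita.

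The macrophage level was higher at 21 than at 7 dpi in all 3 groups of mice. The log2 ratio of the sum was 1.22 (1.14 to 1.29) in Ctrl, between 0.62 and 1.66 under other processing, 1.35 (1.15 to 1.56) in Tgfbr2-cKO and 2.84 (2.81 to 2.87) with ADWA11. Ciita gave 1.99, 3.22 (1.93 to 4.88, from 5 UMIs at 7 dpi) and 3.10, and H2-DMa 0.76, 0.65 and 0.63. Over 2-fold higher at 21 dpi were 4 of 7 members in Ctrl, 5 of 7 in Tgfbr2-cKO and 6 of 7 with ADWA11, where 6.94%, 4.16% and 7.27% of all genes tested were, and 0 were over 2-fold lower, where 2.7%, 7.9% and 8.83% of genes were. The value of Tgfbr2-cKO was not stable: it was -0.16 with 1 filter for all libraries, 0.17 with the class II genes and lists kept in the clustering and 0.25 in female nuclei but 2.64 in male nuclei. These comparisons share libraries with those against Ctrl and are not independent of them.

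Macrophage clusters differed widely in class II level, and the libraries were made up of them in different shares. Over all libraries, so that a cluster's level also holds its make-up by library, a cluster led by Ciita, Clec4b1, Clec4a1 and H2-Eb1 had 1935 nuclei at 2334 CPM. A cluster of 355 nuclei led by Cxcl9, Rsad2 and Iigp1, genes that interferons induce, stood at 2204 CPM, and within the ADWA11 library at 21 dpi, which gave 75.7% of the former's nuclei, it was the higher, with 3109 against 2898 CPM. A cluster led by Cd163, Cbr2 and Clec10a, genes of border-associated macrophages, was at 1116 CPM. The lowest were a cluster with Mmp12 and Arg1 at 85.0 CPM and a cluster with Cd36 at 86.1 CPM. In the ADWA11 library at 21 dpi the Ciita-led cluster was 26.3% of macrophages, against 9.97% in Ctrl at 21 dpi. In Tgfbr2-cKO a cluster with Kynu and Ms4a4a, at 124 CPM, was 33.1% of macrophages at 7 dpi and 47.6% at 21 dpi. The members were kept out of the clustering, but genes that vary with them were not.

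Differences between libraries were also seen within single clusters. At 21 dpi, 6 of the 6 clusters that ADWA11 shared with Ctrl were higher, by log2 ratios of 1.54 to 2.41. With ADWA11 at 7 dpi the 6 shared clusters went both ways, from -0.40 (-0.52 to -0.28) to 1.83, and the intervals of 2 of them held 0. The Cd163 cluster stood at 123 CPM in Ctrl and 308 CPM with ADWA11 at 7 dpi, and at 501, 2666 and 225 CPM in Ctrl, ADWA11 and Tgfbr2-cKO at 21 dpi. In the Ciita-led cluster the level was 839 CPM with ADWA11 at 7 dpi and 859 CPM in Ctrl and 2898 CPM with ADWA11 at 21 dpi. For Tgfbr2-cKO against Ctrl, 2 clusters could be compared at each time, with -2.85 and -0.57 at 7 dpi and -1.16 and -0.43 at 21 dpi. In the cluster at -2.85, 15 of 339 Ctrl nuclei held 80.7% of the class II UMIs of Ctrl, and 10 of these carried at least 2 dendritic markers. Without nuclei of 10 or more class II UMIs, Ctrl and Tgfbr2-cKO stood there at 63.3 and 43.3 CPM. In the other cluster of 7 dpi they then stood at 104 and 133 CPM. At 21 dpi they then stood at 365 and 124 CPM, and at 490 and 264 CPM. From 7 to 21 dpi in Ctrl, 6 of 7 shared clusters had ratios above 0, 1 of them with an interval that held 0 (0.66, -0.05 to 1.40), and 1 was at -0.04.

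**Figure D3:**
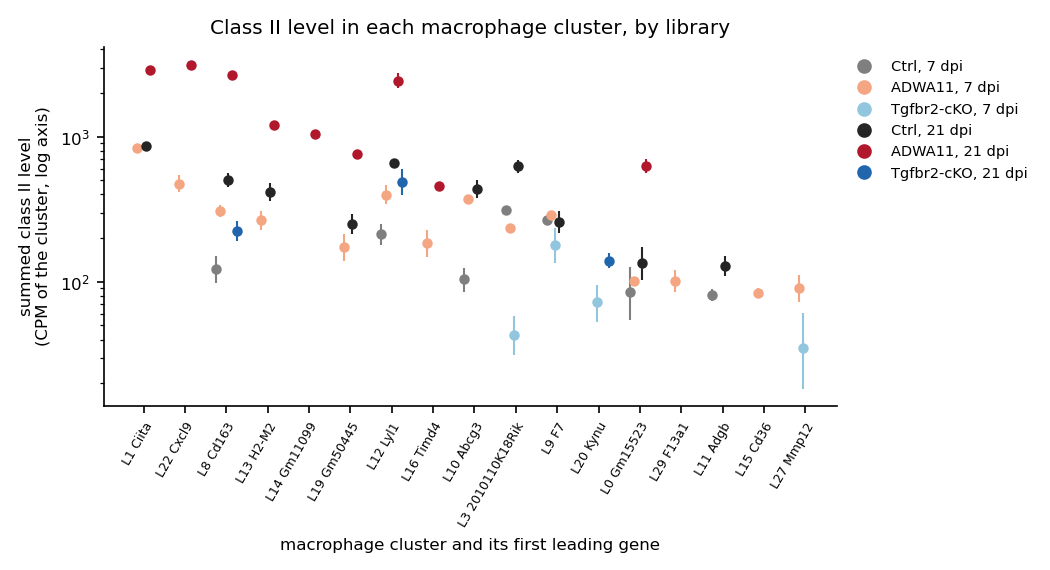
Summed class II level in CPM of the cluster (log axis) for each macrophage cluster, named by its number and first leading gene and ordered along the horizontal axis, with 1 point and 95% counting interval per library of at least 50 nuclei. The clusters span 85.0 to 2334 CPM over all libraries, and in the 6 clusters that the ADWA11 and Ctrl libraries at 21 dpi share, the ADWA11 point is the higher.

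In the share of Ciita among the UMIs of the 8 genes, the range of macrophages over libraries reached into that of each group given here. The ranges of microglia, fibroblasts and dendritic nuclei did not overlap each other. In macrophages the share was 5.96%, 11.5% and 2.08% in the Ctrl, ADWA11 and Tgfbr2-cKO libraries of 7 dpi and 10.2%, 13.7% and 7.59% at 21 dpi. In dendritic nuclei it stayed between 9.41% and 12.8%. In microglia it was 0.99% to 2.78% and in fibroblasts 3.75% to 7.78%, beside 3.65% to 10.7% in neural nuclei. T and NK nuclei had 0.54% to 2.17% in 5 libraries and 5.57% with ADWA11 at 21 dpi. With ADWA11 at 21 dpi the share was 13.7% in macrophages, 3.75% in fibroblasts and 3.65% in neural nuclei; the part of free RNA in these shares was not tested.

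**Figure D4:**
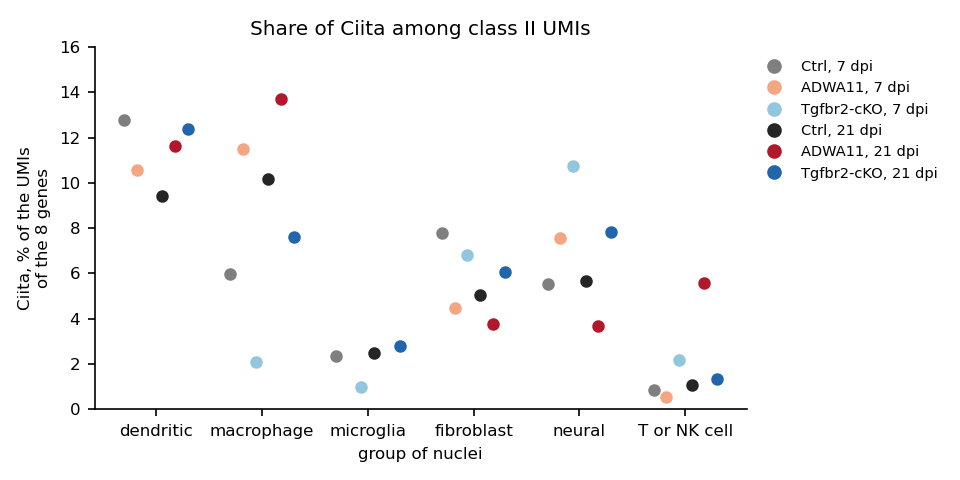
Percent of the UMIs of the 8 class II genes that were Ciita, on a linear axis, for each group of nuclei and library, with 1 point per library and no error bars. Dendritic nuclei lie at 9.41% to 12.8%, macrophages spread from 2.08% to 13.7%, and microglia stay at or below 2.78%.

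Microglia had a lower class II level than the macrophages of the same library in the 4 libraries with enough of them, and at 21 dpi much of it lay in a few nuclei. Their summed level in Ctrl was 65.7 CPM at 7 dpi and 289 CPM at 21 dpi. In Tgfbr2-cKO it was 56.2 CPM at 7 dpi (52.9 and 56.7 CPM in female and male nuclei) and 117 CPM at 21 dpi (56.9 and 203 CPM). The nuclei lay in different clusters, 91.3% in 1 cluster in Ctrl at 7 dpi, 52.3% and 45.1% in 2 others in Tgfbr2-cKO at 7 dpi, and 79.9% and 70.8% in a further one at 21 dpi, so that these sums also differ in make-up. In the 1 cluster that could be compared at 7 dpi the log2 ratio of Tgfbr2-cKO to Ctrl was -0.31 (-0.88 to 0.32), and in the 2 at 21 dpi it was -1.26 and -1.77. Without nuclei of 10 or more class II UMIs, the cluster at -1.77 stood at 138 CPM in Ctrl and 127 CPM in Tgfbr2-cKO. The cluster at -1.26 then stood at 129 CPM in Ctrl and 65.9 CPM in Tgfbr2-cKO. In the order Ctrl and Tgfbr2-cKO at 7 dpi, then both at 21 dpi, there was a UMI in 28.1%, 16.2%, 40.2% and 29.0% of nuclei. The ADWA11 libraries held 244 and 818 class II UMIs in 46 and 19 microglia, too few nuclei for a level. Cd74 stood at 19.0 and 14.1 CPM at 7 dpi and at 119 and 43.1 CPM at 21 dpi. Ciita, at 1.53, 0.56, 7.17 and 3.26 CPM, was above the neural level in 0 of 4 libraries. For Tgfbr2-cKO against Ctrl the log2 ratio of the sum was -0.22 at 7 dpi, and it turned to 0.08 at lower clustering resolutions and to 2.10 with the neural level subtracted, so that no direction held. At 21 dpi it was -1.30, with -1.73 for H2-Aa, -2.01 for H2-Eb1 and -1.47 for Cd74; 4 of 6 members were over 2-fold lower, against 2.0% of all genes tested, and 0 over 2-fold higher, against 3.46%. At 7 dpi 3 of 6 were lower, against 1.68%, and 0 higher, against 8.9%. From 7 to 21 dpi 5 of 6 were over 2-fold higher in Ctrl, against 7.1% (0 lower, against 2.16%), and 4 of 6 in Tgfbr2-cKO, against 2.97% (0 lower, against 6.75%). In Ctrl at 21 dpi 13 nuclei held 56.3% of the microglial class II UMIs and in Tgfbr2-cKO 4 held 33.6%, while at 7 dpi no microglial nucleus of either library had over 8. Without nuclei of 10 or more class II UMIs the ratio of Tgfbr2-cKO to Ctrl at 21 dpi was -0.73, and with a marker gate on single nuclei it was -0.04. Without those nuclei the ratio of 21 to 7 dpi in Ctrl, otherwise 2.14, was 0.98. That cut falls on the measured level itself and took out no nucleus at 7 dpi, so that a smaller ratio was built in.

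B cell nuclei were few, 5, 12 and 3 in the Ctrl, ADWA11 and Tgfbr2-cKO libraries of 7 dpi and 18, 36 and 22 at 21 dpi, and held 117, 79, 17, 100, 428 and 139 class II UMIs. A UMI was found in 4, 10, 2, 17, 35 and 21 of them. Of the 117 UMIs in Ctrl at 7 dpi, 108 lay in 1 nucleus, which also carried at least 2 macrophage and 2 dendritic markers. The 7 B cell markers summed to 2102 to 7218 CPM, beside 356 to 2955 CPM of the 9 microglial and 356 to 3933 CPM of the 15 macrophage markers; in Ctrl at 21 dpi the microglial markers, at 2955 CPM, were above the B cell markers, at 2102 CPM, and the part of other cells in these UMIs was not tested. Taken over all libraries, the 96 nuclei had 2910 CPM (2721 to 3109), with Ciita at 231 CPM and a class II UMI in 92.7%. No library had 50 B cell nuclei, so none was compared.

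Fibroblasts could not be separated from background in every library. Their summed level was 69.9, 67.4 and 48.9 CPM in the Ctrl, ADWA11 and Tgfbr2-cKO libraries of 7 dpi and 156, 327 and 85.7 CPM at 21 dpi, with a UMI after thinning in 12%, 13.2%, 9.29%, 22.5%, 42.6% and 11.3%, which left out 190 of 3095 (ADWA11 at 21 dpi) to 1796 of 5913 nuclei (Ctrl at 21 dpi). Macrophage markers in them summed to 332 to 788 CPM. Tgfbr2-cKO lay below Ctrl by log2 ratios of -0.51 and -0.86 at 7 and 21 dpi, and with the neural level subtracted these turned to 1.25 and 0.32, values that rest on neural nuclei of unlike make-up. ADWA11 lay above Ctrl by 1.07 at 21 dpi, at a level below that of its own neural nuclei. One fibroblast cluster, led by the matrix genes Mgp, Col1a1, Bgn and Lum, had the highest summed level in CPM, with 244, 233 and 160 CPM at 7 dpi and 425, 1750 and 418 CPM at 21 dpi. Of its nuclei 13.8%, 28.7% and 8.70% were called doublets at 7 dpi and 8.83%, 46.2% and 19.8% at 21 dpi, highest with ADWA11 at each time, and the part of doublets in its level was not tested. In Ctrl at 21 dpi a class II UMI was found in 40.1% of its nuclei, below the 49.98% of a cluster led by Slc47a2 and Slc47a1. Its 2016 nuclei there held 1440 class II UMIs, against 1896 in the 2001 nuclei of that cluster, which stood at 128 CPM. The higher CPM thus went with shallower nuclei, and the part of depth in it was not tested.

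A small number of nuclei carried far more class II UMIs than the rest and weighed on the library totals. Over all libraries 79 nuclei had 100 or more, up to 1107 in 1 nucleus, and held 18242 UMIs, 12.9% of all class II UMIs. They held 33.7%, 17.1% and 12.8% of the library's class II UMIs in the Ctrl, ADWA11 and Tgfbr2-cKO libraries of 7 dpi and 21.7%, 4.93% and 29.3% at 21 dpi. Ciita was 2.13% of their class II UMIs against 10.7% in the other nuclei, and mitochondrial UMIs were 3.22% against 0.451%. At least 2 macrophage markers were found in 70 of them and 2 dendritic markers in 63, and 7 were called doublets. By cluster, 38 were in dendritic, 22 in T or NK, 13 in macrophage and 4 in microglial clusters, and 0 were neural. Without them the all-nuclei ratio of ADWA11 to Ctrl at 7 dpi turned from -0.18 to 0.14, and that of 21 to 7 dpi in Ctrl from -0.04 to 0.20. In macrophages, nuclei with 10 or more class II UMIs were 1.6%, 3.4% and 0.71% at 7 dpi and 3.6%, 31.7% and 2.7% at 21 dpi, and held 52.7%, 44.7%, 34.2%, 40.1%, 72.8% and 46.6% of the group's class II UMIs. The median macrophage carried 5 with ADWA11 at 21 dpi, 1 in Ctrl at 21 dpi and 0 in the other libraries.

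Within a library, the female and the male mouse were told apart by sex-linked transcripts. Macrophage class II was 181 and 167 CPM (female and male) in Ctrl, 183 and 261 CPM with ADWA11 and 102 and 58.9 CPM in Tgfbr2-cKO at 7 dpi. At 21 dpi it was 367 and 525 CPM, 1435 and 1538 CPM, and 121 and 366 CPM. The values of the 2 mice did not overlap between the libraries in any of the 7 macrophage comparisons, though the male Tgfbr2-cKO mouse at 21 dpi was within 1 CPM of the female Ctrl mouse, and the females of ADWA11 and Ctrl at 7 dpi were nearly as close. Over all nuclei they overlapped for ADWA11 against Ctrl at 7 dpi and for 21 against 7 dpi in Ctrl. They overlapped for dendritic nuclei in both comparisons that could be made, and for fibroblasts with ADWA11 at 7 dpi. Both mice of a pair shared 1 library, so that they are not replicates of the preparation.

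Genes around the pathway were read as fixed lists in the same macrophages. Of 7 class II transcription genes (Rfx5, Rfxap, Rfxank, the NF-Y subunits and Creb1), 0 passed 2-fold in any of the 4 comparisons with Ctrl, and of 9 antigen-processing genes, 0; over all genes 2.89% to 7.93% passed it per direction, and nothing is read from a count of 0 in lists this small. The paralogs H2-Eb2, H2-Ob and H2-DMb2 held few UMIs, and the 1 of them with enough passed 2-fold in none of the 4. Ctss, the protease that trims the invariant chain, stood at 560, 355 and 568 CPM at 7 dpi and 682, 809 and 724 CPM at 21 dpi. Rfx5, which binds the X box, stood at 7.30, 6.77 and 12.5 CPM and then 6.46, 6.39 and 7.07 CPM. B2m, the light chain of class I, stood at 121, 159 and 180 CPM and then 192, 233 and 179 CPM. Ifi30, a thiol reductase of the endosome, stood at 34.4, 39.9 and 40.7 CPM and then 39.4, 48.6 and 36.8 CPM. Of the interferon-γ axis, 8 of 17 genes were over 2-fold higher with ADWA11 at 21 dpi, against 3.62% of all genes, namely Gbp4 (2.76), Socs1 (2.00), Iigp1 (1.90), Gbp2 (1.66), Gbp5 (1.5), Cd274 (1.41), Irf1 (1.08) and Gbp7 (1.07). Irf1, a factor that acts on the interferon-responsive Ciita promoter, stood at 16.7, 27.8 and 28.5 CPM at 7 dpi and 38.6, 81.7 and 44.3 CPM at 21 dpi. The median log2 ratio of the axis was 0.92, that of the class I list 0.42 and that of the members 1.79. With ADWA11 at 7 dpi 4 of 16 were higher, against 6.49% of all genes, and 0 lower, against 3.4%: Cxcl9 (3.54, 1.95 to 5.84, from 106 against 3 UMIs), Iigp1 (2.19), Gbp2 (1.94) and Gbp4 (1.07).

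In Tgfbr2-cKO some genes of the interferon-γ axis were higher than in Ctrl where class II members were lower. At 7 dpi 3 of 12 axis genes were over 2-fold higher in macrophages, Iigp1 (2.07), Gbp5 (1.38) and Cd274 (1.24), against 6.4% of all genes. Over 2-fold lower were 0 axis genes and 5 of 7 class II members, against 2.89% of all genes. Of the class I list 1 of 9 was higher, from which nothing is read. At 21 dpi 2 of 15 axis genes were higher, Gbp7 (1.26) and Gbp5 (1.01), against 3.17% of all genes, and against 4.24% of them 1 was lower, since Cxcl9 was lower (-4.95, -10.28 to -2.41, from 1 against 54 UMIs). Only 1 axis gene was over 2-fold higher there with TMM factors. The microglia of Tgfbr2-cKO at 7 dpi had 3 of 12 axis genes and 3 of 9 class I genes over 2-fold higher, against 8.9% of all genes, with 1 of 9 processing genes near that share, namely Iigp1 (2.46), Cd274 (1.10) and Gbp5 (1.02), the class I genes H2-D1 (1.30), Psmb9 (1.03) and Tap1 (1.01), beside lower H2-Eb1 (-1.80), and at 21 dpi 2 of 13 axis genes, Gbp7 (1.81) and Gbp5 (1.36), against 3.46%. With TMM factors 1 axis gene was past 2-fold in microglia at 7 dpi. Psmb9 and Tap1 lay just past 2-fold, and the class I count with TMM factors is not given. Nothing is therefore read from the class I count in these microglia. The transcript of interferon-γ itself, Ifng, stood in T and NK nuclei at 15.9, 14.3 and 42.7 CPM at 7 dpi, from 9, 12 and 6 UMIs, and at 6.38, 9.36 and 19.8 CPM at 21 dpi, from 6, 34 and 20 UMIs.

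**Figure D5:**
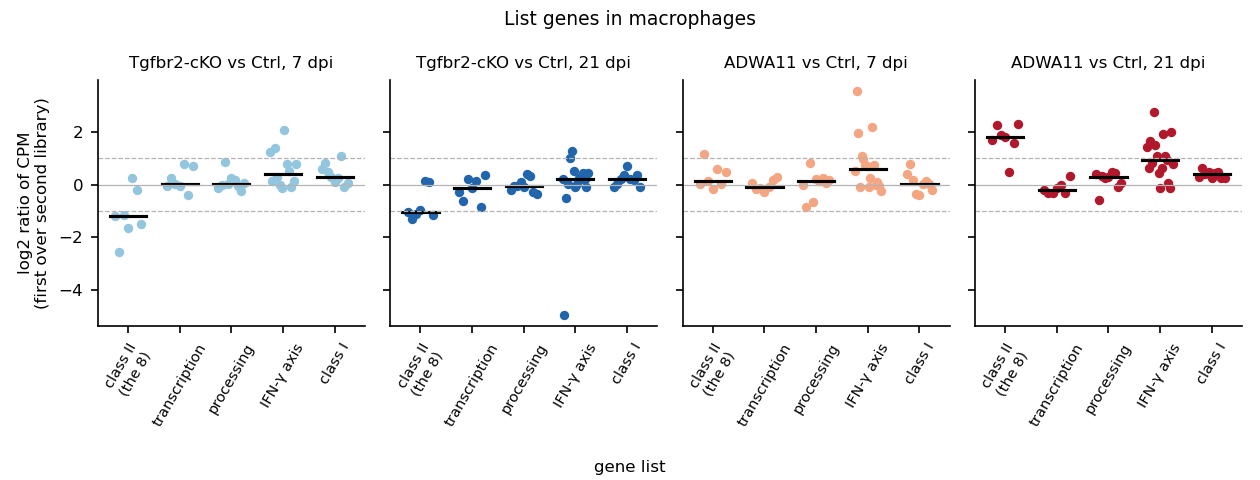
Log2 ratio of macrophage CPM for each gene (points) of 5 lists along the horizontal axis, with 1 panel for each of the 4 comparisons of ADWA11 or Tgfbr2-cKO with Ctrl and lines for the list medians. The class II points lie mostly below 0 in both Tgfbr2-cKO panels (medians -1.19 and -1.02) and far above 0 with ADWA11 at 21 dpi (median 1.79), while the transcription and processing lists stay within 2-fold.

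Across 60 sums of nuclei (a group in a library), the genes outside all lists whose level most followed the summed class II level were Gpr132 (Pearson r = 0.93), Ccr2 (0.92), Cd47 and Stap1 (0.89) and Slamf7, Cytip, Map4k1 and Atp8b4 (0.88), with Ptpn22 and Syngr2 at 0.87, of 18486 genes ranked on log2(CPM + 1). The sums share libraries and differ in depth, so that this is a description only. Each member is part of that sum, which builds in a high r for the abundant ones: r was 1.00 for Cd74, 0.99 for H2-Ab1 and H2-Aa, 0.98 for H2-Eb1, 0.91 for H2-DMb1, 0.88 for H2-DMa and 0.86 for Ciita. In macrophages Slamf7, a surface receptor of activated leukocytes, was at 69.5, 56.0 and 43.7 CPM at 7 dpi and at 154, 261 and 133 CPM at 21 dpi.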

How the data were processed

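Nuclei of the dissected lesions were sorted on DAPI and sequenced as 10x 3′ v3.1 libraries. The authors deposited raw UMI counts per gene and barcode, made with Cell Ranger 7.2.0 per the file headers (their processing notes name 7.1.0) on mm10. From these counts the lowest and highest 2.5% of nuclei by UMIs and by genes and the top 2.5% by mitochondrial share were left out per library. Nuclei were clustered with Seurat 5.3.0 (SCTransform, sctransform 0.4.2, 3000 variable genes without the class II genes and lists, 30 components, resolution 0.5, 1.5 for leukocytes and 0.2 for fibroblasts) in R 4.3.3. A cluster was named when at least 3 markers of a type were found in 5% or more of its nuclei and at 2-fold the other clusters. The resolution of 1.5, of 3 tried, and details of the naming were settled after clusters and their leading genes had been seen. Doublets were scored by a Scrublet-type method with an expected share in proportion to the barcodes (6339 calls); called nuclei were kept, and a cluster with over 50% calls was left out.

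UMIs were summed per group and library, with CPM of the group's non-mitochondrial UMIs and exact Poisson intervals, exact binomial (Clopper-Pearson) intervals for shares, and exact conditional binomial intervals for log2 ratios, all at 95% and for counting error only. A count of 0 was given a floor of 3 counts. Genes with 50 or more UMIs over the 2 libraries compared were counted as past 2-fold or not, and no test between conditions was run, with 1 library per group. Genes named were the members, Ctss, Ifi30, Rfx5, Irf1, B2m, list genes past 2-fold against Ctrl in macrophages or microglia, and the 10 genes outside the lists with the highest correlation to the members, over sums of 50 or more nuclei and genes with 200 or more UMIs; Slamf7's levels, Ifng, Tgfbr2 and genes leading clusters were added, and 1 gene of the rule is not reported here. Sums and scaling were tested on simulated data; edgeR 4.0.16 gave the alternative TMM factors only. The matrices of all 6 libraries were read, and 60468 of 67360 barcodes entered the sums. The members and lists were chosen with earlier results of these data known. Libraries came from the labels, with 2 mice pooled in each. Promoters came from RefSeq tables. Python 3.11.15, numpy 2.4.6, scipy 1.17.1 and pandas 2.3.3 were used.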

Additional observations from a re-analysis of the deposited data

Results flagged for a closer look

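Over all nuclei the ADWA11 library lay below Ctrl at 7 dpi, with a log2 ratio of class II CPM of -0.18, and above it at 21 dpi, with 2.12. The opposite signs drew attention, and the difference between the times was not tested. The value at 7 dpi turned to 0.14 without the 79 nuclei of 100 or more class II UMIs.

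One T and NK cluster of 452 nuclei, led by Ptprcap, Cd3d, Nkg7 and Trac, lies outside the groups compared and carried class II UMIs at over 10 times the neural level in every library with enough nuclei. It stood at 9848 CPM in Ctrl and 5014 CPM with ADWA11 at 7 dpi, and at 8547, 4962 and 3585 CPM in Ctrl, ADWA11 and Tgfbr2-cKO at 21 dpi. Of its 11068 class II UMIs, 96.8% lay in 57 nuclei with 10 or more each, and without these its level was 247 CPM. At least 2 macrophage markers were found in 47 of the 57, at least 2 dendritic markers in 23 and at least 2 T or NK markers in 4. The other T and NK clusters stood at 550 to 704 CPM over all libraries, with 55.1% to 85.0% of their nuclei from ADWA11 at 21 dpi; the one with Cd8a ran from 69.1 CPM in Ctrl at 7 dpi to 872 CPM in that library.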

How the results depend on the processing

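Other processing left the direction of the macrophage differences in place for both comparisons of Tgfbr2-cKO with Ctrl, for ADWA11 against Ctrl at 21 dpi and for 21 against 7 dpi in Ctrl and with ADWA11, in the 13 alternatives run for each, while their sizes differed. A value counts as different here when it lies outside the counting interval of the reported value, which is narrow for large sums. Of the 7 macrophage comparisons, ADWA11 at 7 dpi turned at leukocyte resolution 1 and 21 against 7 dpi in Tgfbr2-cKO turned with 1 filter for all libraries; the cause was not tested. Resolutions 1 and 0.5 and the exclusion of nuclei with many class II UMIs were chosen after the data had been seen. That exclusion is made on the measured level itself and in raw UMIs, so that its outcome is partly fixed by the cut and by depth. Values without such nuclei describe the remaining nuclei only. With 1 library per condition the error between libraries is not known, and H2-Oa, Ciita in microglia and all B cell values are limited by few UMIs. TMM factors shifted the median log2 ratio of all genes for Tgfbr2-cKO against Ctrl at 7 dpi from 0.03 to -0.12 in macrophages and from 0.09 to -0.05 in microglia, and for ADWA11 against Ctrl at 21 dpi in macrophages from -0.05 to 0.06. In what follows, a group and time stand for its comparison with Ctrl at that time, and time in a group for 21 against 7 dpi; comparisons not listed under a setting stayed within their interval or could not be made (fibroblasts in the ADWA11 libraries with the neural level subtracted, groups left with under 50 nuclei). No paired analysis was possible because the labels give 1 library per condition and no replicate numbers; the ratios within female and within male nuclei are given instead.

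For macrophages, the log2 ratios of the sum reported were -1.03 for Tgfbr2-cKO at 7 dpi, -0.90 for Tgfbr2-cKO at 21 dpi, 0.20 for ADWA11 at 7 dpi, 1.82 for ADWA11 at 21 dpi, 1.22 for time in Ctrl, 1.35 for time in Tgfbr2-cKO and 2.84 for time with ADWA11. With TMM factors, they were 1.94 for ADWA11 at 21 dpi and 1.11 for time in Ctrl. Class II genes and lists kept in the clustering gave -0.72 for Tgfbr2-cKO at 7 dpi, -1.41 for Tgfbr2-cKO at 21 dpi, 0.11 for ADWA11 at 7 dpi, 1.92 for ADWA11 at 21 dpi, 0.85 for time in Ctrl, 0.17 for time in Tgfbr2-cKO and 2.66 for time with ADWA11. Female nuclei only gave -0.84 for Tgfbr2-cKO at 7 dpi, -1.60 for Tgfbr2-cKO at 21 dpi, 0.010 for ADWA11 at 7 dpi, 1.97 for ADWA11 at 21 dpi, 1.02 for time in Ctrl, 0.25 for time in Tgfbr2-cKO and 2.97 for time with ADWA11. With male nuclei only, they were -1.50 for Tgfbr2-cKO at 7 dpi, -0.52 for Tgfbr2-cKO at 21 dpi, 0.65 for ADWA11 at 7 dpi, 1.55 for ADWA11 at 21 dpi, 1.66 for time in Ctrl, 2.64 for time in Tgfbr2-cKO and 2.56 for time with ADWA11. Leukocyte resolution 1 gave -0.17 for ADWA11 at 7 dpi, 1.67 for ADWA11 at 21 dpi, 0.86 for time in Ctrl, 1.12 for time in Tgfbr2-cKO and 2.70 for time with ADWA11. Log-normalised clustering gave -0.16 for Tgfbr2-cKO at 7 dpi, -0.46 for Tgfbr2-cKO at 21 dpi, 1.03 for time in Ctrl, 0.74 for time in Tgfbr2-cKO and 2.59 for time with ADWA11. With a marker gate per nucleus, they were -1.08 for Tgfbr2-cKO at 21 dpi, 2.10 for ADWA11 at 21 dpi, 0.62 for time in Ctrl, 0.65 for time in Tgfbr2-cKO and 2.48 for time with ADWA11. The mean of CPM per nucleus gave -0.74 for Tgfbr2-cKO at 7 dpi, -1.10 for Tgfbr2-cKO at 21 dpi, 0.43 for ADWA11 at 7 dpi, 1.42 for time in Ctrl and 1.06 for time in Tgfbr2-cKO. The neural level subtracted gave -0.82 for Tgfbr2-cKO at 7 dpi, -0.67 for Tgfbr2-cKO at 21 dpi, 0.10 for ADWA11 at 7 dpi, 1.73 for ADWA11 at 21 dpi, 1.31 for time in Ctrl and 2.93 for time with ADWA11. With nuclei of 10 or more class II UMIs left out, they were -0.58 for Tgfbr2-cKO at 7 dpi, -1.08 for Tgfbr2-cKO at 21 dpi, 0.44 for ADWA11 at 7 dpi, 1.20 for ADWA11 at 21 dpi, 1.59 for time in Ctrl, 1.09 for time in Tgfbr2-cKO and 2.34 for time with ADWA11. 1 filter for all libraries gave -0.24 for Tgfbr2-cKO at 7 dpi, -1.26 for Tgfbr2-cKO at 21 dpi, 0.32 for ADWA11 at 7 dpi, 2.06 for ADWA11 at 21 dpi, 0.86 for time in Ctrl, -0.16 for time in Tgfbr2-cKO and 2.59 for time with ADWA11.

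For microglia, the log2 ratios of the sum reported were -0.22 for Tgfbr2-cKO at 7 dpi, -1.30 for Tgfbr2-cKO at 21 dpi, 2.14 for time in Ctrl and 1.06 for time in Tgfbr2-cKO. With TMM factors, it was 1.97 for time in Ctrl. Class II genes and lists kept in the clustering gave -0.66 for Tgfbr2-cKO at 21 dpi and 1.44 for time in Ctrl. Female nuclei only gave -2.00 for Tgfbr2-cKO at 21 dpi, 1.79 for time in Ctrl and 0.11 for time in Tgfbr2-cKO. With male nuclei only, they were -0.60 for Tgfbr2-cKO at 21 dpi and 1.84 for time in Tgfbr2-cKO. Leukocyte resolution 1 gave 0.075 for Tgfbr2-cKO at 7 dpi and 0.80 for time in Tgfbr2-cKO. Leukocyte resolution 0.5 gave 0.085 for Tgfbr2-cKO at 7 dpi, -1.01 for Tgfbr2-cKO at 21 dpi, 2.56 for time in Ctrl and 1.46 for time in Tgfbr2-cKO. With log-normalised clustering, they were -0.57 for Tgfbr2-cKO at 7 dpi, -0.70 for Tgfbr2-cKO at 21 dpi and 1.03 for time in Ctrl. A marker gate per nucleus gave -0.47 for Tgfbr2-cKO at 7 dpi, -0.038 for Tgfbr2-cKO at 21 dpi, 1.06 for time in Ctrl and 1.49 for time in Tgfbr2-cKO. The neural level subtracted gave 2.10 for Tgfbr2-cKO at 7 dpi, -1.04 for Tgfbr2-cKO at 21 dpi and 4.29 for time in Ctrl. With nuclei of 10 or more class II UMIs left out, they were -0.73 for Tgfbr2-cKO at 21 dpi, 0.98 for time in Ctrl and 0.47 for time in Tgfbr2-cKO. 1 filter for all libraries gave -1.05 for Tgfbr2-cKO at 21 dpi, 2.5 for time in Ctrl and 1.47 for time in Tgfbr2-cKO.

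For dendritic nuclei, the log2 ratios of the sum reported were -0.78 for Tgfbr2-cKO at 21 dpi, -0.033 for ADWA11 at 7 dpi, 0.10 for ADWA11 at 21 dpi, 0.11 for time in Ctrl and 0.25 for time with ADWA11. With TMM factors, it was 0.20 for ADWA11 at 21 dpi. Called doublets left out gave -0.95 for Tgfbr2-cKO at 21 dpi. Class II genes and lists kept in the clustering gave -0.14 for Tgfbr2-cKO at 21 dpi, -0.51 for ADWA11 at 7 dpi, -0.16 for ADWA11 at 21 dpi and 0.43 for time with ADWA11. With female nuclei only, they were -0.51 for ADWA11 at 7 dpi and 0.44 for time with ADWA11. Male nuclei only gave 0.17 for ADWA11 at 7 dpi and 0.0043 for time with ADWA11. Log-normalised clustering gave -0.37 for Tgfbr2-cKO at 21 dpi, -0.50 for ADWA11 at 7 dpi, -0.44 for ADWA11 at 21 dpi and 0.22 for time in Ctrl. With a marker gate per nucleus, they were 0.15 for ADWA11 at 7 dpi, -1.22 for ADWA11 at 21 dpi, 1.38 for time in Ctrl and 0.0094 for time with ADWA11. The mean of CPM per nucleus gave -0.67 for Tgfbr2-cKO at 21 dpi, 0.029 for ADWA11 at 7 dpi, 0.23 for ADWA11 at 21 dpi and 0.039 for time in Ctrl. The neural level subtracted gave 0.030 for ADWA11 at 21 dpi and 0.17 for time with ADWA11. With 1 filter for all libraries, they were -0.95 for Tgfbr2-cKO at 21 dpi, 0.020 for ADWA11 at 7 dpi and 0.22 for time in Ctrl.

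For fibroblasts, the log2 ratios of the sum reported were -0.51 for Tgfbr2-cKO at 7 dpi, -0.86 for Tgfbr2-cKO at 21 dpi, -0.053 for ADWA11 at 7 dpi, 1.07 for ADWA11 at 21 dpi, 1.16 for time in Ctrl, 0.81 for time in Tgfbr2-cKO and 2.28 for time with ADWA11. With called doublets left out, it was 0.070 for ADWA11 at 7 dpi. Class II genes and lists kept in the clustering gave 1.14 for ADWA11 at 21 dpi. Female nuclei only gave 0.14 for ADWA11 at 7 dpi and 1.18 for ADWA11 at 21 dpi. With male nuclei only, they were -0.96 for Tgfbr2-cKO at 7 dpi, -0.19 for ADWA11 at 7 dpi and 0.98 for ADWA11 at 21 dpi. Log-normalised clustering gave -1.09 for Tgfbr2-cKO at 7 dpi, -1.45 for Tgfbr2-cKO at 21 dpi, 0.16 for ADWA11 at 7 dpi, 1.39 for ADWA11 at 21 dpi, 1.37 for time in Ctrl and 2.60 for time with ADWA11. A marker gate per nucleus gave -1.14 for Tgfbr2-cKO at 7 dpi, -1.46 for Tgfbr2-cKO at 21 dpi, 1.15 for ADWA11 at 21 dpi and 1.04 for time in Ctrl. With the mean of CPM per nucleus, they were -0.031 for Tgfbr2-cKO at 7 dpi, -0.35 for Tgfbr2-cKO at 21 dpi, 0.82 for ADWA11 at 21 dpi, 1.35 for time in Ctrl and 2.18 for time with ADWA11. The neural level subtracted gave 1.25 for Tgfbr2-cKO at 7 dpi, 0.32 for Tgfbr2-cKO at 21 dpi and 1.72 for time in Ctrl. Nuclei of 10 or more class II UMIs left out gave -1.04 for Tgfbr2-cKO at 21 dpi, 0.10 for ADWA11 at 7 dpi, 1.00 for ADWA11 at 21 dpi and 2.13 for time with ADWA11. With 1 filter for all libraries, they were 0.18 for ADWA11 at 7 dpi, 1.24 for ADWA11 at 21 dpi and 2.20 for time with ADWA11.

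For all nuclei, the log2 ratios of the sum reported were -3.08 for Tgfbr2-cKO at 7 dpi, -1.08 for Tgfbr2-cKO at 21 dpi, -0.18 for ADWA11 at 7 dpi, 2.12 for ADWA11 at 21 dpi, -0.037 for time in Ctrl, 1.96 for time in Tgfbr2-cKO and 2.26 for time with ADWA11. With TMM factors, they were -2.70 for Tgfbr2-cKO at 7 dpi, -0.22 for ADWA11 at 7 dpi, -0.17 for time in Ctrl, 1.5 for time in Tgfbr2-cKO and 2.19 for time with ADWA11. Called doublets left out gave -1.41 for Tgfbr2-cKO at 21 dpi and 1.58 for time in Tgfbr2-cKO. Female nuclei only gave -3.60 for Tgfbr2-cKO at 7 dpi, -1.56 for Tgfbr2-cKO at 21 dpi, -0.77 for ADWA11 at 7 dpi, 1.81 for ADWA11 at 21 dpi, -0.35 for time in Ctrl, 1.69 for time in Tgfbr2-cKO and 2.23 for time with ADWA11. With male nuclei only, they were -2.58 for Tgfbr2-cKO at 7 dpi, -0.63 for Tgfbr2-cKO at 21 dpi, 0.20 for ADWA11 at 7 dpi, 2.23 for ADWA11 at 21 dpi, 0.014 for time in Ctrl and 2.04 for time with ADWA11. Neural nuclei left out gave -0.92 for Tgfbr2-cKO at 7 dpi, -0.33 for Tgfbr2-cKO at 21 dpi, 2.01 for ADWA11 at 21 dpi, 0.56 for time in Tgfbr2-cKO and 2.13 for time with ADWA11. Nuclei of 100 or more class II UMIs left out gave -2.68 for Tgfbr2-cKO at 7 dpi, -1.22 for Tgfbr2-cKO at 21 dpi, 0.14 for ADWA11 at 7 dpi, 2.40 for ADWA11 at 21 dpi, 0.20 for time in Ctrl, 1.66 for time in Tgfbr2-cKO and 2.46 for time with ADWA11. With 1 filter for all libraries, they were -2.49 for Tgfbr2-cKO at 7 dpi, -0.85 for Tgfbr2-cKO at 21 dpi, -0.077 for ADWA11 at 7 dpi, 2.16 for ADWA11 at 21 dpi, 0.048 for time in Ctrl, 1.69 for time in Tgfbr2-cKO and 2.29 for time with ADWA11.

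Without called doublets, macrophage nuclei held 21% in Ctrl at 21 dpi, 64.1% in ADWA11 at 21 dpi and 19.5% in Tgfbr2-cKO at 21 dpi of the class II UMIs. Dendritic nuclei then held 44% in Ctrl at 7 dpi, 31.4% in ADWA11 at 7 dpi, 16.1% in Tgfbr2-cKO at 7 dpi, 15.8% in Ctrl at 21 dpi, 16.3% in ADWA11 at 21 dpi and 20.05% in Tgfbr2-cKO at 21 dpi. Counts of list genes past 2-fold differed by over 1.5 times in 13 of 132 repeats. With a minimum of 20 UMIs the interferon-γ axis had 6 genes higher in macrophages and 5 in microglia for Tgfbr2-cKO at 7 dpi and 2 higher in microglia for time in Ctrl; with any UMI the counts were 7, 7 and 2, beside 4 higher in microglia for Tgfbr2-cKO at 21 dpi and 1 lower for time in Tgfbr2-cKO. TMM factors gave 1 higher in macrophages for Tgfbr2-cKO at 21 dpi and 1 in microglia for Tgfbr2-cKO at 7 dpi. With any UMI, 1 member was higher in the microglia of each Tgfbr2-cKO comparison with Ctrl, and 1 was lower for time in Ctrl. Shares of all genes past 2-fold at these lower UMI minima are not given. Nothing is therefore read from the counts at 20 UMIs or with any UMI. Thinned to 2000 UMIs per nucleus, 58 of 79 member ratios stayed within their counting intervals and H2-Ab1 in macrophages with ADWA11 at 7 dpi turned to 0.43.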

Other observations

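Neutrophil nuclei, a cluster outside the groups compared, held class II UMIs at 400, 1372 and 171 CPM in Ctrl, ADWA11 and Tgfbr2-cKO at 21 dpi. Macrophages of the same libraries stood at 434, 1534 and 233 CPM and neural nuclei at 113, 465 and 31.3 CPM. The neutrophil interval in Ctrl, 286 to 544 CPM, held the macrophage level, and that with ADWA11 reached the macrophage interval. These levels came from 40, 346 and 30 UMIs in 61, 133 and 77 nuclei. Those nuclei were shallow, at median depths of 1207, 1376 and 1421 UMIs, and the part of free RNA was not tested. Plasma cell nuclei numbered under 50 in every library and held 237 class II UMIs in all. A microglial cluster that made up 13.5% of microglia in Ctrl at 21 dpi stood there at 1108 CPM, of which 8 of its 97 nuclei held 88.6%, and at 138 CPM without them; in Tgfbr2-cKO at 21 dpi 3 of its 266 nuclei held 61.5% of its class II UMIs. A macrophage cluster with Cd5l and Fabp4 stood at 1003 CPM and came to 96.8% from the ADWA11 library at 21 dpi. H2-Oa in microglia of the Tgfbr2-cKO library at 7 dpi gave 12 UMIs against 5 in Ctrl, a log2 ratio of 1.69 (0.08 to 3.54).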
